A study of Mus musculus with 4 samples.

Results

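The antiviral effectors of the type I interferon response are the proteins that a cell makes after it has sensed interferon, and here they are 37 listed mouse genes, of which 36 had a probe set among the 17413 genes named on the array. The members came from a fixed list of gene symbols that was chosen with earlier results of these data known, so counts over it have no test. Every probe set annotated to a member was read. Where a gene had several probe sets, the one with the highest mean over the 4 arrays stood for it. Bst2, the remaining listed gene, is not analysed here. The members cover sensors of viral nucleic acid, enzymes that act on double-stranded RNA, the OAS, IFIT, MX and PARP families, transcription and nuclear body factors, ubiquitin and ISG15 enzymes, and other effectors. The study compared B cells of miR-146a transgenic (TG) mice with those of wild type (WT) mice, with 2 mice per group and 1 Affymetrix array per mouse. All 4 animals were labelled as males on the inbred Balb/C background, aged 6 to 8 weeks. The cells were prepared from lymph nodes by magnetic removal of the other cells, which left the B cells unlabelled, and dead cells were taken out. Which promoter drives the transgene is not stated in the labels, so the cell types that carry it are not known from them.

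Type I interferons bind a receptor on the cell surface, and the receptor's kinases switch on a complex of STAT proteins and IRF9. That complex binds the interferon-stimulated response element (ISRE) in promoters and turns on a broad set of antiviral genes, many of which are also transcribed at a low level in resting cells. miR-146a is a microRNA that represses Irak1 and Traf6, signalling proteins downstream of Toll-like receptors, and Toll-like receptors are one route to interferon production.

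The sequences that frame the comparison are the overexpressed microRNA and the promoter stretches of members that hold the ISRE letters. The mature microRNA, from RefSeq on GRCm38.p6, lies at chr11:43374435-43374456 on the minus strand, and the capitals mark its seed, bases 2 to 8.
mmu-miR-146a-5p: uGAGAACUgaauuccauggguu
The motif searched was GAAANNGAAA on the gene's strand or TTTCNNTTTC for the other strand, with N for any base, and matches may overlap each other. The search covered 250 bases before to 50 bases after each start in the RefSeq promoter table (GRCm38.p6). Of the 27 members in that table, 12 held at least 1 match (44.4%), against 1079 of all 27025 genes in it (3.99%). The stretches of 80 bases shown are those of the 4 members with a match and the smallest p in the comparison, Oas1g, Ifit3, Oas3 and Stat2. Ifit1 was added after its values were seen, because its neighbour Ifit3 differed between the groups far more than it did. Capitals mark the matches, and each stretch is written on the gene's strand.
Oas1g: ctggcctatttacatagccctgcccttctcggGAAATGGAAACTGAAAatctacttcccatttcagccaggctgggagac
Ifit3: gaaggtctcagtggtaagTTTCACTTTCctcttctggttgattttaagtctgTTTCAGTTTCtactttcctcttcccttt
Oas3: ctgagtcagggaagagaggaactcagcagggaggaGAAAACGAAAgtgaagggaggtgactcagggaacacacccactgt
Stat2: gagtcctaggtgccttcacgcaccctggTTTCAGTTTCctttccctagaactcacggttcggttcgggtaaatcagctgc
Ifit1: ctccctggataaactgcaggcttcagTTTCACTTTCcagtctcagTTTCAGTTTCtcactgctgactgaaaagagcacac
The Oas1g stretch is chr5:120887584-120887663 on the minus strand, with overlapping matches that begin at positions -18 and -12 from the start. For Ifit3 the stretch is chr19:34583355-34583434 on the plus strand, with matches at -156 and -122. The Oas3 stretch, chr5:120777690-120777769 on the minus strand, has a single match at -75. Stat2 has its single match at -222, in chr10:128270248-128270327 on the plus strand. The Ifit1 stretch, chr19:34640759-34640838 on the plus strand, holds matches at -104 and -85.

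The array of TG mouse 1 stood apart from the others. The upper quartile of its log2 signals was 6.14, against 6.51 for TG mouse 2, and against 6.55 and 6.56 for the WT mice. The TG pair correlated at r = 0.989 over the 45037 probe sets and the WT pair at r = 0.998, so the spread within the TG group was the larger. The label male stands against the values of Xist, which coats the inactive X chromosome of females: it gave log2 signals of 9.13 and 9.56 in the TG mice, against 5.96 and 6.19 in the WT mice (limma adjusted p = 0.0446). Y-linked Eif2s3y was present on all arrays, at 7.80 and 8.00 in the TG mice, against 8.29 and 8.34 in the WT mice. No probe set of the microRNA itself was analysed here, so the transgene has no check in these values. An exact permutation test of 2 against 2 arrays cannot give a two-sided p below 0.333. The p-values are therefore those of limma, a linear model that shares the spread between probe sets, and they measure the spread between these arrays only.

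As deposited, most antiviral effectors had lower signals in the TG mice, but no member passed the test over all probe sets. Of the 36 members, 33 differed downwards and 3 upwards, and the median difference was -0.53 on the log2 scale, a TG level of 69.3% of the WT level. The median of the 12316 genes above the signal filter (a mean log2 signal over 4.1) was -0.11. By limma with Benjamini-Hochberg adjustment over 45037 probe sets, 0 members passed an adjusted p of 0.05, the smallest being 0.0935. The background was 0.00888% of all probe sets called lower and 0.0377% called higher. At an unadjusted p under 0.05, 20 members (55.6%) were lower and 1 was higher, against 10.5% and 3.21% of all probe sets.

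Both TG signals lay below both WT signals for 27 members (75.0%) and above both for 2 (5.56%), and the groups overlapped for 7. Over all genes, 31.6% were lower and 17.7% higher without overlap, and over the genes above the signal filter 38.0% and 15.3%. A difference of at least 0.5 downwards was found for 19 members (52.8%), against 9.96% of the genes above the filter. One of at least 1 downwards was found for 4 members (11.1%), Oas1g, Ifit3, Mx1 and Dhx58, against 1.03% of those genes. In RNA from a mixed preparation, fewer cells of a type and less RNA per cell cannot be told apart.

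**Figure D1:**
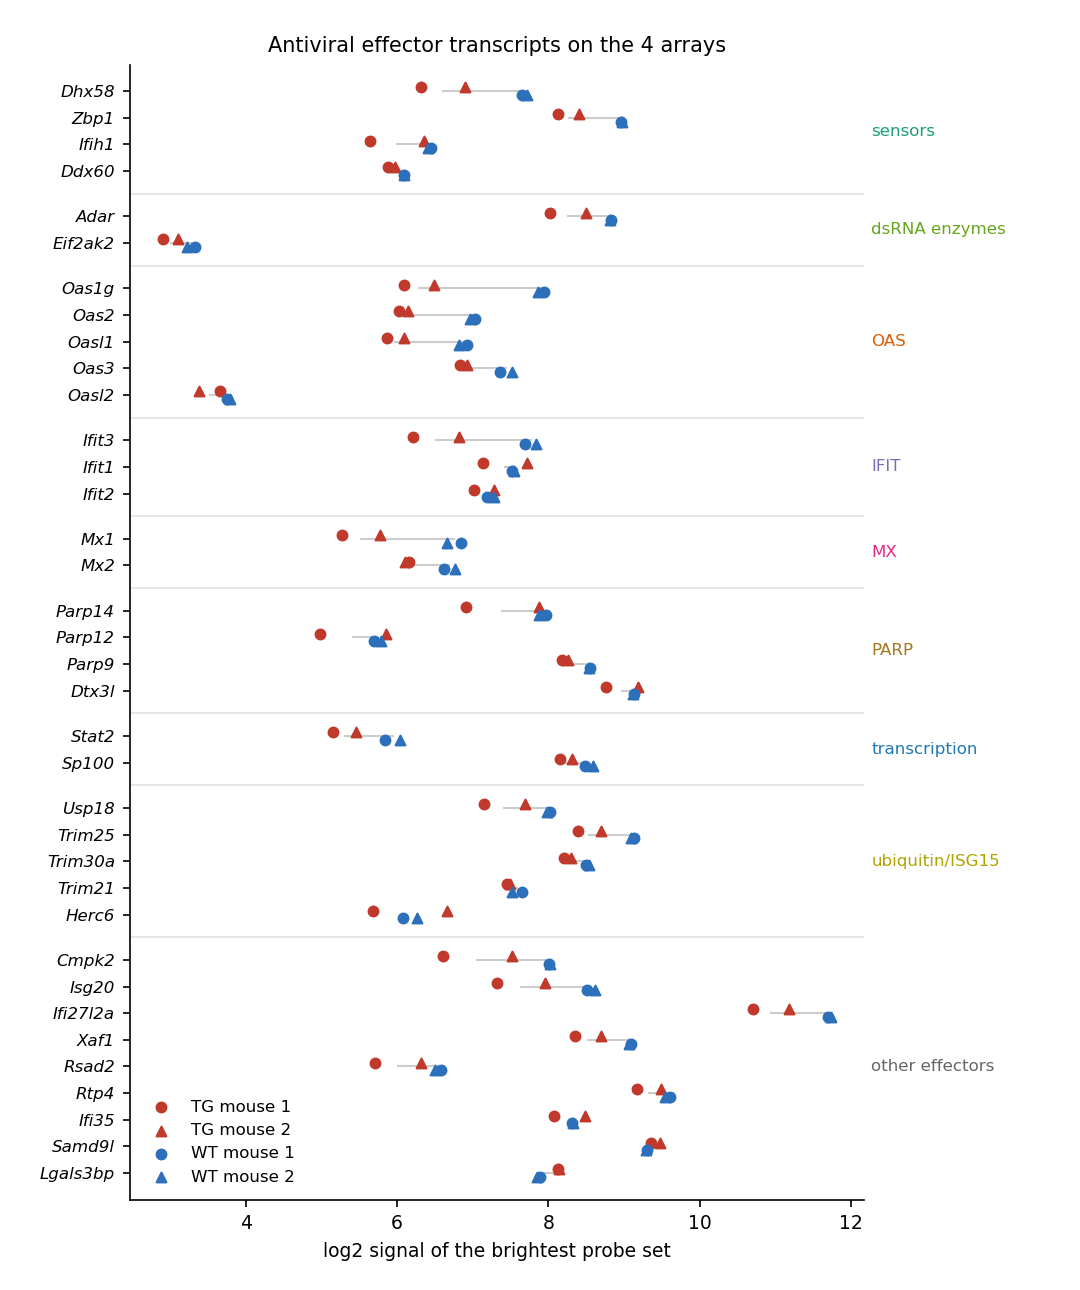
Log2 signal of the brightest probe set of each of the 36 measured members (horizontal axis) on the 4 arrays, grouped by role; red symbols are TG mice, blue symbols WT mice, circles mouse 1 and triangles mouse 2, and the grey line joins the group means. The blue symbols of a gene lie at most 0.19 apart, TG mouse 1 is below both WT mice for 34 members and TG mouse 2 for 27.

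The sensors of viral nucleic acid were all lower in the TG mice, without overlap for 4 of 4, against 38.0% of the genes above the filter. Their median difference was -0.57, and 0.36 when each array was centred on the mean of its resting B cell genes. That centring raised every difference, and the genes above the filter then had a median of 0.82. This 0.82 is the reference for the centred median of each family below. Dhx58, the helicase LGP2 that tunes the sensor MDA5, gave 6.32 and 6.90 in the TG mice, against 7.65 and 7.72 in the WT mice (probe set 1451426_PM_at). The difference was -1.08 ± 0.21 (SE), a 2.11-fold lower level, with a limma adjusted p of 0.191. Its TG signals were both below the WT signals, with TG mouse 1 the lowest. Zbp1, which binds nucleic acid in the Z form, gave 8.12 and 8.41 in the TG mice, against 8.96 and 8.97 in the WT mice (1429947_PM_a_at). That is a difference of -0.70 ± 0.13 (SE; limma adjusted p = 0.186), again without overlap. Ifih1, the long double-stranded RNA sensor MDA5, differed by -0.43, and its TG mouse 2 lay just below the WT mice. Ddx60, a helicase linked to RNA sensing, differed by -0.16, with both TG mice just below the WT mice. After quantile normalization Ddx60 differed by 0.05 and its groups overlapped.

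The enzymes that bind double-stranded RNA had a median difference of -0.42 (0.51 centred on the B cell genes). Adar, which edits adenosine in double-stranded RNA, gave 8.02 and 8.50 in the TG mice, against 8.83 and 8.81 in the WT mice, a difference of -0.56 ± 0.18 (SE; limma adjusted p = 0.312). Its TG signals were below the WT signals, and TG mouse 1 was the further away. Eif2ak2, the kinase PKR that stops translation, gave 2.91 and 3.11 in the TG mice, against 3.33 and 3.22 in the WT mice. Those signals are close to the 2.83 to 2.95 of the array's non-specific control probe sets, so its difference of -0.27 says little about the transcript.

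The enzymes of the OAS family make the oligoadenylates that switch on RNase L. Here 5 of 5 members were lower without overlap, against 31.6% of all genes and 38.0% of the genes above the filter. Among the 5, Oasl2 lay under that filter. The family's median difference was -0.90 (0.03 centred on the B cell genes, against 0.82 for the genes above the filter). Oas1g had the largest difference of all members. It gave 6.09 and 6.49 in the TG mice, against 7.94 and 7.87 in the WT mice (1424775_PM_at), a difference of -1.61 ± 0.16 (SE), or 3.06-fold lower, with a limma adjusted p of 0.0935. The TG signals lay more than 1 log2 unit below both WT signals, whichever TG mouse was taken. The Oas1 genes are a cluster of closely similar copies, so signal from another copy cannot be told apart from that of Oas1g.

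Oas2 gave 6.02 and 6.14 in the TG mice, against 7.03 and 6.97 in the WT mice (1425065_PM_at), a difference of -0.92 ± 0.10 (SE; limma adjusted p = 0.106). Oasl1, an OAS-like protein that in mice holds back translation of Irf7, gave 5.86 and 6.09 in the TG mice, against 6.92 and 6.82 in the WT mice (1424339_PM_at), a difference of -0.90 ± 0.13 (SE; limma adjusted p = 0.136). For both genes the TG mice were close to each other and well apart from the WT mice. Oas3, the largest enzyme of the family, gave 6.83 and 6.92 in the TG mice, against 7.36 and 7.52 in the WT mice (1425374_PM_at), a difference of -0.56 ± 0.11 (SE; limma adjusted p = 0.193). Oasl2, another OAS-like gene, was dim (3.67 and 3.38 in the TG mice, against 3.75 and 3.79 in the WT mice) and differed by -0.25. It was also 1 of only 2 members for which TG mouse 2 was the lower of the TG pair.

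The IFIT genes, which encode proteins that bind foreign RNA, split within the family. Ifit3 gave 6.22 and 6.82 in the TG mice, against 7.69 and 7.84 in the WT mice (1449025_PM_at), a difference of -1.25 ± 0.22 (SE), 2.38-fold lower, with a limma adjusted p of 0.168. Ifit1, which recognises the unmethylated cap of viral RNA, gave 7.14 and 7.71 in the TG mice, against 7.51 and 7.55 in the WT mice (1450783_PM_at). Its difference was -0.10 ± 0.21 (SE; limma adjusted p = 0.851, 95% interval -0.66 to 0.45), with 1 TG mouse below and 1 above the WT pair. Ifit2 gave 7.02 and 7.28 in the TG mice, against 7.19 and 7.28 in the WT mice, a difference of -0.09 ± 0.13 (SE), and its groups overlapped too. The family median of -0.10 was 0.08 after quantile normalization, 0.05 without TG mouse 1 and 0.82 centred on the B cell genes. The mouse genome holds a further, closely similar copy of Ifit3, so both copies may share this probe set. Differences between members of a family were not tested against each other.

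The MX proteins are dynamin-like GTPases that block virus replication, Mx1 in the nucleus and Mx2 in the cytoplasm. Many inbred strains, Balb/C among them, carry a defective Mx1 allele, so the transcript measured here is not one of full function. Mx1 gave 5.27 and 5.78 in the TG mice, against 6.84 and 6.66 in the WT mice (1451905_PM_a_at), a difference of -1.22 ± 0.20 (SE), 2.33-fold lower, with a limma adjusted p of 0.149. Mx2 gave 6.16 and 6.10 in the TG mice, against 6.62 and 6.77 in the WT mice (1419676_PM_at), a difference of -0.56 ± 0.11 (SE; limma adjusted p = 0.187). Both genes were lower without overlap, against 38.0% of the genes above the filter. Mx2 was the other member with TG mouse 2 the lower of the pair. The family median was -0.89 (0.04 centred on the B cell genes, against 0.82 for the genes above the filter).

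In the PARP group, which adds ADP-ribose to proteins, 1 of 4 members (25.0%) was lower without overlap, against 38.0% of the genes above the filter. The group's median difference was -0.32 (0.01 without TG mouse 1 and 0.60 centred on the B cell genes). Parp9 gave 8.19 and 8.26 in the TG mice, against 8.55 and 8.53 in the WT mice, a difference of -0.32 ± 0.10 (SE; limma adjusted p = 0.298). Its ubiquitin ligase partner Dtx3l, with which it forms a complex, gave 8.76 and 9.19 in the TG mice, against 9.13 and 9.12 in the WT mice, a difference of -0.15. Parp14 gave 6.91 and 7.88 in the TG mice, against 7.97 and 7.88 in the WT mice, a difference of -0.53 ± 0.33 (SE; limma adjusted p = 0.536). On the brightest probe sets of Parp14, Parp12 and Dtx3l only TG mouse 1 was low, while TG mouse 2 lay above a WT mouse. The other probe set of Parp14 gave 4.66 and 5.27 in the TG mice, against 5.62 and 5.63 in the WT mice, a difference of -0.66 without overlap, so whether the Parp14 groups overlap depends on the probe set. Parp12 gave 4.97 and 5.86 in the TG mice, against 5.69 and 5.79 in the WT mice, a difference of -0.33.

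Among the transcription and nuclear body factors the median difference was -0.47 (0.46 centred on the B cell genes). Stat2, a subunit of the complex that binds the ISRE, gave 5.15 and 5.46 in the TG mice, against 5.85 and 6.04 in the WT mice (1421911_PM_at). The difference was -0.63 ± 0.15 (SE; limma adjusted p = 0.229). Sp100, a protein of the PML nuclear bodies, differed by -0.31. Both genes were lower without overlap, against 38.0% of the genes above the filter.

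The ubiquitin and ISG15 enzymes had a median difference of -0.27 (0.66 centred on the B cell genes). Of the 5, 4 were lower without overlap, against 38.0% of the genes above the filter. After quantile normalization 2 of the 5 were, against 27.2% of those genes, and the median was -0.10. Usp18, which removes ISG15 from proteins and dampens the interferon receptor, gave 7.15 and 7.69 in the TG mice, against 8.03 and 7.99 in the WT mice, a difference of -0.59 ± 0.20 (SE; limma adjusted p = 0.331). Trim25, a ubiquitin ligase known from RNA sensing, gave 8.39 and 8.69 in the TG mice, against 9.13 and 9.09 in the WT mice, a difference of -0.57 ± 0.14 (SE; limma adjusted p = 0.230). Trim30a, one of a cluster of similar TRIM genes that may share signal, differed by -0.27. Trim21, the cytosolic antibody receptor, differed by -0.11, and by 0.08 after quantile normalization. Herc6, the main ISG15 ligase of the mouse, gave 5.69 and 6.66 in the TG mice, against 6.08 and 6.26 in the WT mice. Its TG signals lay on either side of the WT signals, and its difference was 0.00 ± 0.34 (SE; 95% interval -0.88 to 0.89).

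The other effectors ranged from a difference of -0.95 to one of 0.26, with a median of -0.53 (0.40 centred on the B cell genes). Of the 9 measured, 6 (66.7%) were lower without overlap, against 38.0% of the genes above the filter. Cmpk2, a mitochondrial nucleotide kinase whose gene lies beside Rsad2, gave 6.60 and 7.52 in the TG mice, against 8.01 and 8.02 in the WT mice (1450484_PM_a_at). The difference was -0.95 ± 0.31 (SE; limma adjusted p = 0.316), and the TG mice were almost 1 log2 unit apart. Isg20, an exonuclease of single-stranded RNA, gave 7.33 and 7.96 in the TG mice, against 8.51 and 8.61 in the WT mice, a difference of -0.92 ± 0.23 (SE; limma adjusted p = 0.240). Ifi27l2a, a small membrane protein gene of a family of close copies, gave 10.70 and 11.18 in the TG mice, against 11.70 and 11.73 in the WT mice (1426278_PM_at), a difference of -0.78 ± 0.18 (SE; limma adjusted p = 0.225). All 3 genes were lower in both TG mice, with TG mouse 1 the lowest.

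Xaf1, a partner of the apoptosis inhibitor XIAP, differed by -0.55 and Rsad2, or viperin, which makes a chain-terminating nucleotide, by -0.53, both without overlap. Rtp4, a chaperone of membrane receptors, differed by -0.25. Ifi35, an interferon-induced cytosolic protein, gave 8.07 and 8.49 in the TG mice, against 8.32 and 8.32 in the WT mice. It differed by -0.04, with TG mouse 1 below and TG mouse 2 above the WT pair. Only Lgals3bp and Samd9l were higher without overlap. Lgals3bp, a secreted glycoprotein that binds galectins, gave 8.13 and 8.14 in the TG mice, against 7.89 and 7.85 in the WT mice, a difference of 0.26 ± 0.10 (SE; limma adjusted p = 0.357). Samd9l, which restricts poxviruses, gave 9.36 and 9.47 in the TG mice, against 9.30 and 9.29 in the WT mice, a difference of 0.12.

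**Figure D2:**
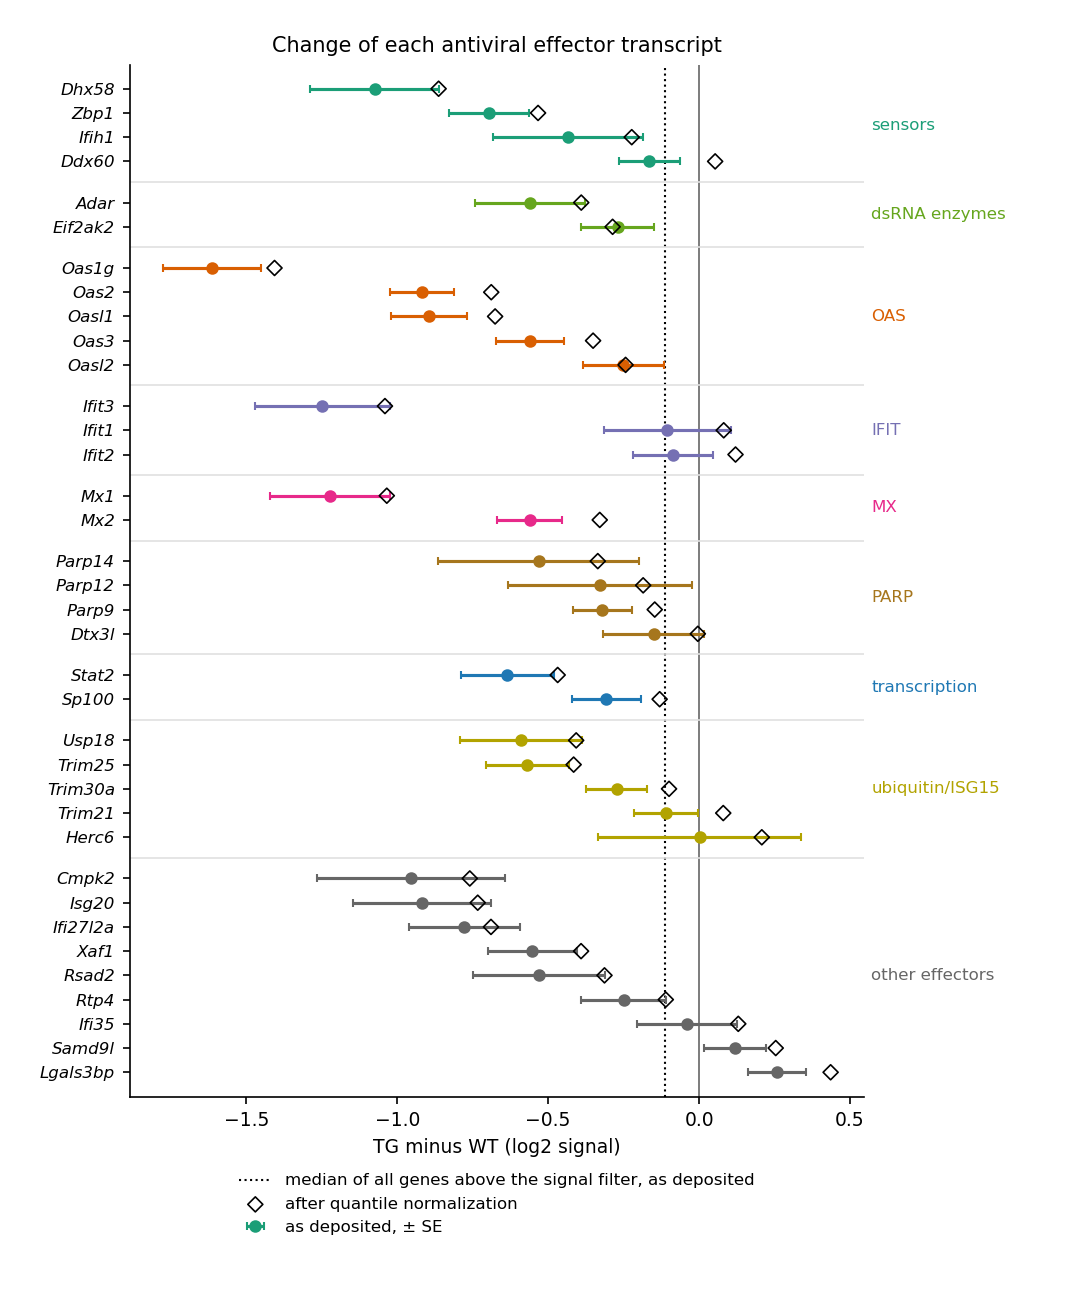
Difference between TG and WT means in log2 signal (horizontal axis) for each member, as deposited (filled circles, bars ± SE of the limma fit, n = 2 each) and after quantile normalization (open diamonds); the dotted line is the median of all genes above the signal filter, -0.11. Quantile normalization moved 35 of the 36 members to the right, Eif2ak2 moved by -0.02, and Ddx60, Trim21, Ifit1, Ifit2 and Ifi35 crossed 0.

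The number of members that passed moved with the scaling of the arrays. After quantile normalization 5 members passed as lower, Oas1g, Ifit3, Mx1, Dhx58 and Oasl1, and 0 as higher, against 1.04% and 0.893% of all probe sets. Their differences on that scale were -1.41 for Oas1g (limma adjusted p = 0.0124), -1.04 for Ifit3 (0.0313), -1.03 for Mx1 (0.0366), -0.86 for Dhx58 (0.0366) and -0.68 for Oasl1 (0.0484). The members' median was -0.32, against 0.02 for the genes above the filter. Without overlap, 24 members were lower (66.7%) and 4 higher on that scale, against 27.2% and 32.8% of the genes above the filter. All 24 were also among the 27 that were lower as deposited.

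The TG mice did not differ from the WT mice by the same amount. TG mouse 1 was below TG mouse 2 for 34 of 36 members (94.4%), with a median gap of -0.33, and so it was for 83.8% of the genes above the filter, with a median gap of -0.27. The WT mice differed by at most 0.19 for any member. TG mouse 1 was below both WT mice for 94.4% of the members, against 71.8% of the genes above the filter, and TG mouse 2 for 75.0%, against 41.2%. By family, the median difference from the WT mean was -0.98 in TG mouse 1 and -0.78 in TG mouse 2 for OAS, and -1.0 and -0.78 for MX. The MX value joins Mx1 (-1.47 and -0.97) with Mx2 (-0.53 and -0.59). The medians in TG mouse 1 and TG mouse 2 were -0.81 and -0.33 for sensors, -0.59 and -0.35 for transcription and nuclear body factors, -0.57 and 0.01 for PARP and -0.39 and 0.05 for IFIT.

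**Figure D3:**
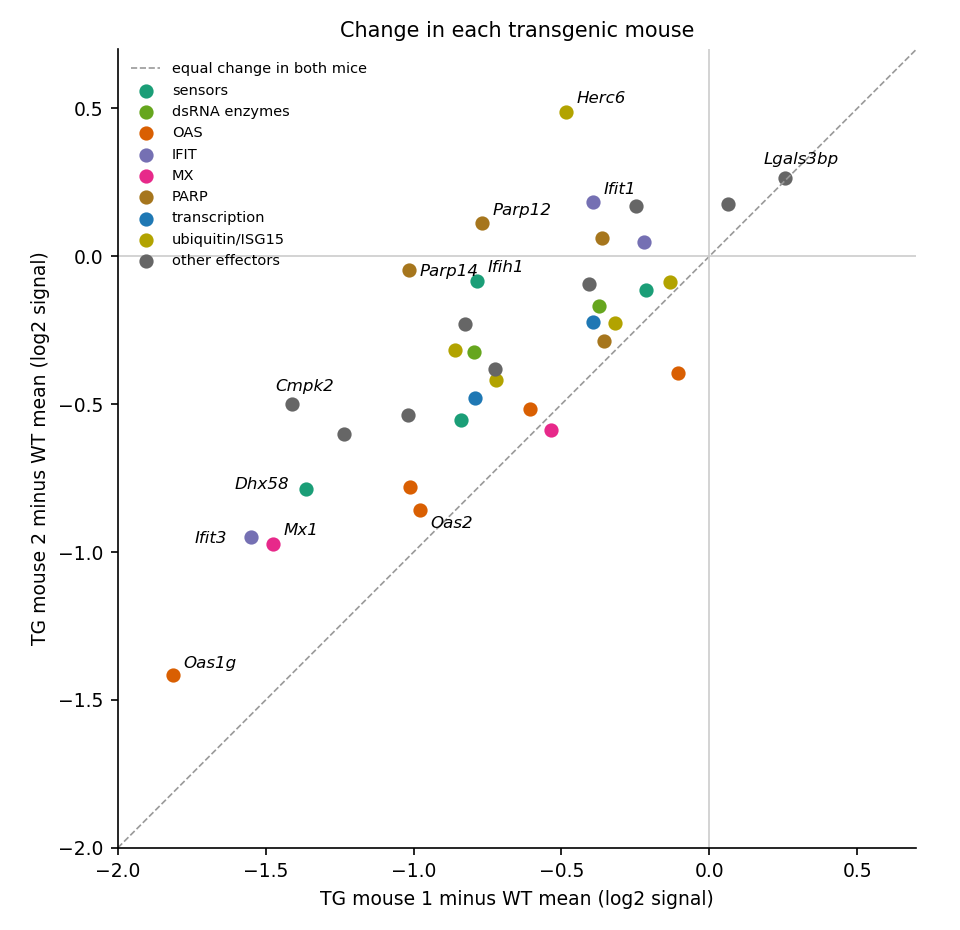
Difference of TG mouse 1 (horizontal axis) and of TG mouse 2 (vertical axis) from the WT mean in log2 signal, 1 point per member, coloured by role; both axes share the same 2 WT arrays. Points above the dashed line are lower in TG mouse 1, which holds for 34 of 36 members. In TG mouse 2, 8 members lie above both WT mice, against 5330 of the 12316 genes above the signal filter.

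The members' other probe sets add a check on the choice of the brightest. The 36 members had 51 probe sets, 45 of them lower in the TG mice, and none was annotated to several genes. The median difference over all probe sets was -0.04. Among the 12 members with several probe sets, those of Dhx58, Rsad2 and Trim21 differed in sign. For Dhx58 the opposed probe set gave 4.64 and 4.52 in the TG mice, against 4.61 and 4.45 in the WT mice, a difference of 0.05. For Trim21 it gave 6.78 and 6.94 in the TG mice, against 6.63 and 6.75 in the WT mice, so the direction of Trim21 depends on the probe set. Of the 15 probe sets that were not the brightest of their gene, 9 were lower without overlap, 5 overlapped and 1 was higher. Over the brightest probe sets of all genes, 31.6% were lower and 17.7% higher without overlap. Those of Xaf1 (-0.90) and Parp14 (-0.66) differed by more than the brightest of the same gene. Those of Cmpk2 (-0.15), Stat2 (-0.33) and Trim30a (-0.07) differed by less and overlapped.

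Upstream and beside the effectors, the genes of the same pathway differed less as lists. None of them passed an adjusted p of 0.05 by limma as deposited. At an unadjusted p under 0.05, 10.5% of all probe sets were lower and 3.21% higher. In the receptor and signal list 5 of 6 genes were measured, with a median of -0.21, 1 lower at an unadjusted p under 0.05 and 2 of the 5 lower without overlap, against 38.0% of the genes above the filter. The receptor subunit Ifnar1 gave 6.77 and 7.21 in the TG mice, against 7.30 and 7.35 in the WT mice, a difference of -0.34, and Ifnar2 differed by -0.14 with overlap. Irf9, which joins Stat2 on the ISRE, gave 8.20 and 8.31 in the TG mice, against 8.55 and 8.61 in the WT mice, a difference of -0.33 ± 0.10 (SE; limma adjusted p = 0.308). The kinase Tyk2 differed by -0.21, with overlap.

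The 13 genes that induce interferon had a median of -0.14. Of them, 6 (46.2%) were lower without overlap, against 38.0% of the genes above the filter. At an unadjusted p under 0.05, 3 of the 13 were lower, against 10.5% of all probe sets. Irf7, the factor that drives interferon alpha genes, gave 7.46 and 7.70 in the TG mice, against 8.68 and 8.64 in the WT mice (1417244_PM_a_at), a difference of -1.08 ± 0.12 (SE; limma adjusted p = 0.105). On quantile-normalized arrays Irf7 differed by -0.90 (limma adjusted p = 0.0272). The single-stranded RNA receptor Tlr7 differed by -0.70, the adaptor Ticam1 by -0.35 and the adaptor Mavs by -0.23. Of 8 inhibitors, Ptpn6 differed by -0.53, Pias1 by -0.51 and Pias4 by -0.46, while Socs1 differed by 0.38. At an unadjusted p under 0.05, 3 of the 8 inhibitors were lower, against 10.5% of all probe sets. The inhibitors' median was -0.22, and 0.05 without TG mouse 1.

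The interferon genes themselves had a median difference of 0.03 over 10 of 13 listed genes, and 0 of them reached an unadjusted p under 0.05 by limma. Ifna2 differed by 0.56, Ifna7 by -0.32, Ifna5 by -0.28 and Ifna9 by -0.27, and 4 of the 10 lay under the signal filter. The other interferon-induced genes, 38 of 45 measured, had a median of -0.22, with 22 (57.9%) lower and 5 (13.2%) higher without overlap, against 38.0% and 15.3% of the genes above the filter. At an unadjusted p under 0.05, 13 of the 38 were lower and 4 higher, against 10.5% and 3.21% of all probe sets. Pml, the core of the nuclear bodies that Sp100 joins, gave 7.02 and 7.29 in the TG mice, against 8.40 and 8.49 in the WT mice, a difference of -1.29 ± 0.13 (SE; limma adjusted p = 0.0935). Apobec3, a deaminase that restricts retroviruses, went the other way, with 7.41 and 7.30 in the TG mice, against 5.95 and 6.27 in the WT mice, a difference of 1.24 ± 0.15 (SE; limma adjusted p = 0.107). Oas1c differed by -0.76 and Ifitm3, which blocks virus entry, by -0.75. Its relatives Ifitm2 and Ifitm1 went the other way, by 0.79 and 0.46, both higher without overlap.

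Markers of B cells and of other cell types moved with the groups. Of 17 resting B cell markers 16 were measured, with a median difference of -1.01. All 16 were lower in the TG mice without overlap, against 38.0% of the genes above the filter. The B cell markers' mean log2 signal was 8.84 and 9.05 in the TG mice, against 9.85 and 9.89 in the WT mice. No measured B cell marker lay under the signal filter. For 32 of the 36 members the difference from WT was less negative than that median. Centring each array on the mean of these B cell genes, an alternative chosen after seeing the data, added 0.93 to every difference. On that scale the members' median was 0.40 and that of the genes above the filter 0.82. The differences of Oas1g, Ifit3, Mx1, Dhx58 and Cmpk2 were still negative there, between -0.69 and -0.03. Only 3 members were lower without overlap there, and 27 were higher. The matching shares over all genes were not computed.

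Neutrophil markers were higher without overlap for 12 of 13 measured, against 15.3% of the genes above the filter. They had a median of 1.09 and mean signals of 6.07 and 6.32 in the TG mice, against 4.77 and 4.78 in the WT mice. Of the neutrophil markers, Chil3 and Ngp rose past an adjusted p of 0.05 by limma (0.0219 for each), and Mpo and Mmp9 lay under the signal filter. T cell markers, 10 of 12 measured, had mean signals of 9.59 and 9.80 in the TG mice, against 9.21 and 9.29 in the WT mice. Their median difference was 0.51, with 9 higher and 1 lower without overlap, the lower one being Cd4 (-0.79). No measured T cell marker lay under the filter in a preparation labelled as B cells. Plasmacytoid dendritic cells are known for making much interferon, and their markers had a median of -0.58 over 6 of 8 listed. The mean signals of these markers were 6.81 and 7.13 in the TG mice, against 7.65 and 7.67 in the WT mice. Of the 6, 5 were lower without overlap, against 38.0% of the genes above the filter. Pld4, which some B cells also express, fell by 1.93 on the log2 scale (limma adjusted p = 0.0359). NK cell markers had a median of 0.06 over 7 genes, with 3 higher and 1 lower without overlap, from -0.96 for Gzma to 1.17 for Eomes. Monocyte and macrophage markers had a median of 0.18 over 10 genes, with 6 higher and 1 lower without overlap. They ran from -0.06 for Mpeg1 to 1.19 for Ccr2, with Cd14 at 0.97 and Csf1r at 0.14. For all these lists, the shares over the genes above the filter were 15.3% higher and 38.0% lower without overlap. The part of these cell types in the members' differences was not tested.

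**Figure D4:**
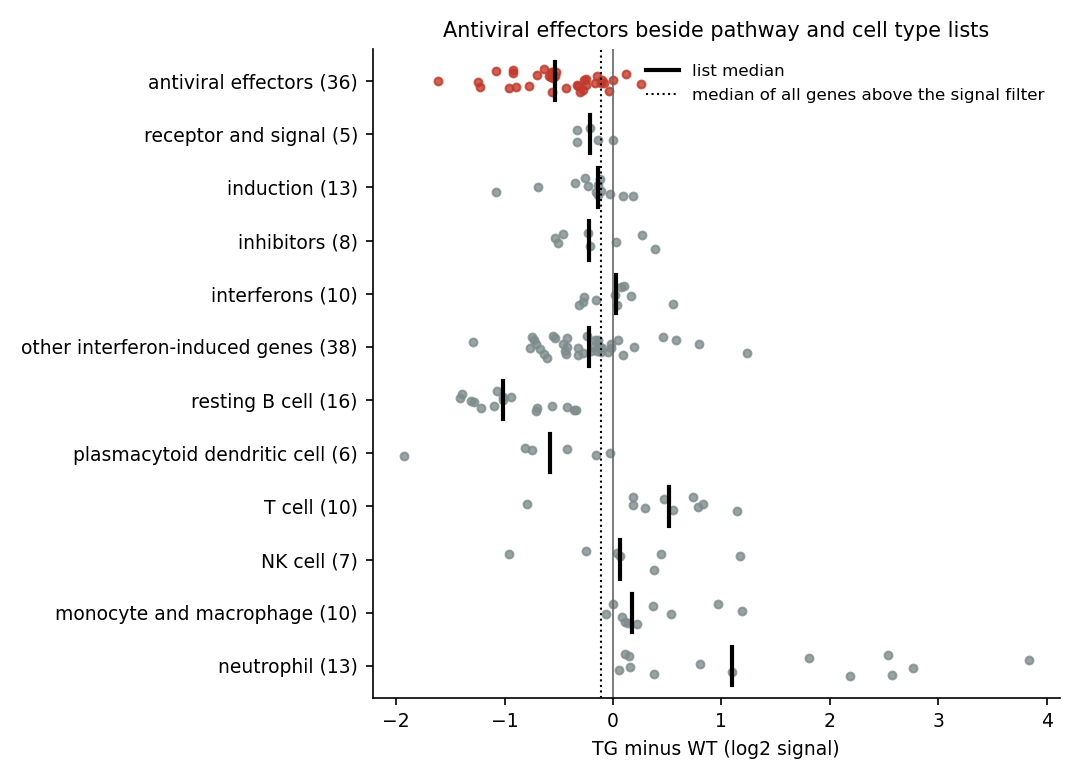
Difference between TG and WT means in log2 signal (horizontal axis), 1 point per gene, for the members (red), the pathway lists and the cell type marker lists (grey), with the number of measured genes in brackets; black bars are list medians and the dotted line is the median of all genes above the signal filter. The members' median of -0.53 lies between that of the resting B cell markers, -1.01, and those of the other pathway lists, -0.22 to 0.03.

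Members with and without the ISRE letters overlapped in their differences. The 11 measured members with a match in the promoter window had a median difference of -0.43, from -1.61 to -0.10, and 10 of them were lower without overlap. The 15 members of the table without a match had a median of -0.31, from -0.95 to 0.26, and 8 of them were lower without overlap. Over the genes above the filter, 38.0% were lower without overlap. Whether members with and without a match differ was not tested. Ifit3 and Ifit1, shown above with 2 matches each on the other strand, differed by -1.25 and -0.10. A match is a run of letters and not a measured binding site, and a window without one says only that these letters are absent from it.

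**Figure D5:**
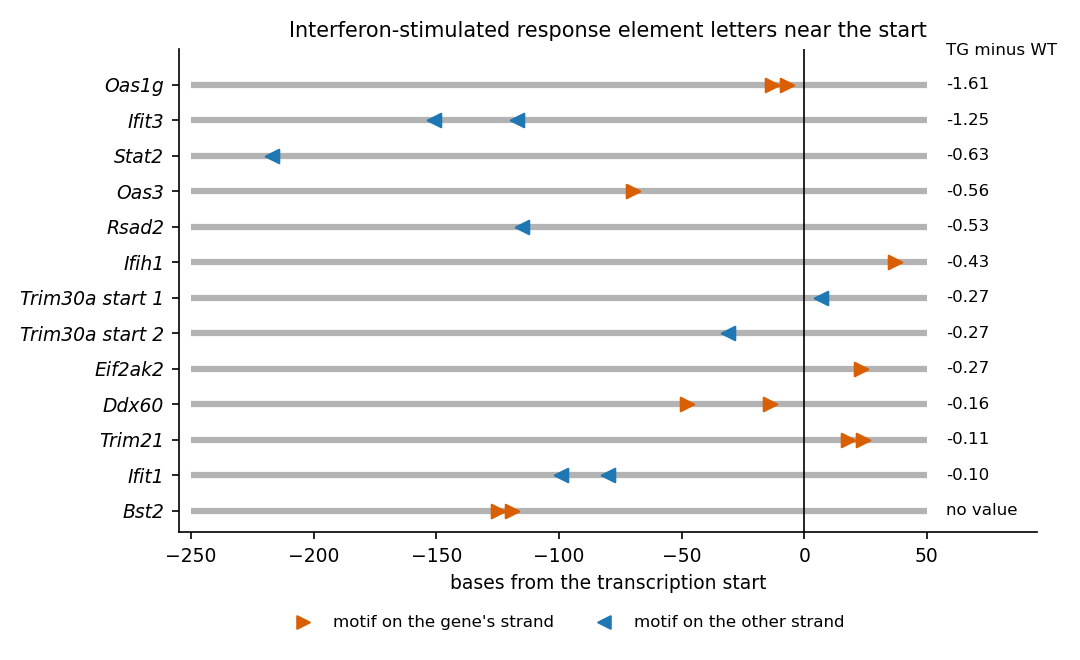
Position of each ISRE match relative to the transcription start (horizontal axis, bases), for the members with a match in the window of 250 bases before to 50 after the start; orange triangles lie on the gene's strand and blue triangles on the other, and the column at the right gives the TG minus WT difference in log2 signal. Members with matches run from -1.61 for Oas1g to -0.10 for Ifit1, and Bst2 has no value here.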

How the data were processed

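RNA of lymph node B cells from 2 miR-146a transgenic and 2 wild type mice was measured on Affymetrix arrays, 1 per mouse. The authors deposited 1 log2 signal per probe set and array for 45141 probe sets, between 2.01 and 13.03, a range that fits log2 values. The background correction and normalization behind the deposited log2 values are not given in the sources used here. Groups came from the sample titles. The 104 control probe sets were set aside, and no probe set carried a detection call, so precision rests on the number of arrays.

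Gene symbols came from the platform annotation, in which 28898 probe sets named 1 gene, 551 several and 15588 none. The groups were compared by a linear model with moderated variances (limma 3.58.1, run in R 4.3.3), two-sided, with 2 residual and 2.69 prior degrees of freedom. Benjamini-Hochberg adjustment ran over 45037 probe sets at a threshold of 0.05. All SE, adjusted p and 95% intervals are those of this fit. The fit was also run on simulated arrays that all had the same spread, taken from the WT pair. Those arrays lacked the larger TG spread and the lower signals of TG mouse 1, so the run cannot tell how the fit behaves under these. Replicate numbers tie no mouse to another, and same-numbered arrays did not deviate together (r = 0.0145), so no replicate block was used. Nothing says whether the mice were prepared apart, so p-values measure only the spread between these samples.

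The members and lists were chosen with earlier results of these data known, so lists are described by counts and medians and have no test. Every member is named. Values per array are given for members that differed by at least 1 log2 unit or had 1 of the 10 smallest p, for at least 1 member per family, for those whose groups overlapped and for some others of the same families. Pathway genes named are Irf7, Irf9, Ifnar1 and Ifnar2 and up to 4 per list by smallest p, with Ifitm1 and Ifitm2 added beside Ifitm3. Alternatives were quantile normalization, centring on each array's median or on B cell genes, the replicate block, a trended and robust eBayes, a filter at percentile 40 of the mean signal, a threshold of 0.1, the mean of all probe sets and leaving out each array. Sequences are from RefSeq tables on GRCm38.p6. Figures were drawn with matplotlib 3.10.9.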

Additional observations from a re-analysis of the deposited data

How the results depend on the processing

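As deposited, 21 probe sets and 0 members passed by limma, 27 members were lower and 2 higher without overlap, and the members' median was -0.53. With the replicate block, which the labels give no reason to use, 15 probe sets and 0 members passed, and the median and the counts without overlap did not move. Quantile normalization gave 870 probe sets, 5 members, 4 members higher without overlap and a median of -0.32. Median centring gave 614 probe sets, 5 members and a median of -0.48. The filter on dim probe sets gave 51 probe sets and 0 members, a trended and robust eBayes 26 and 0, and a threshold of 0.1 gave 139 and 1. Leaving out 1 array gave 0 to 19110 probe sets, 0 to 31 members, 27 to 34 members lower and 2 to 8 higher without overlap, and medians of -0.72 to -0.30. Without TG mouse 1, 15 members and 9.19% of all probe sets passed, and without TG mouse 2, 31 members and 42.4% did, each with a lone TG array assumed to vary like the WT pair. Where only 1 TG array was left, without overlap means that this array alone lay outside both WT signals. TG mouse 1 lay below both for 34 members (94.4%), against 71.8% of the genes above the filter. It lay above both for 2 members, against 2462 of those 12316 genes. TG mouse 2 lay below both for 27 members (75.0%), against 41.2% of them, and above both for 8, against 5330 of them. The cause of the moves between settings was not tested.

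Directions that turned outside the centring on B cell genes were few. After quantile normalization these were the IFIT median (0.082), Ifit1 (0.082), Ifit2 (0.121), Ifi35 (0.13), Trim21 (0.08) and Ddx60 (0.053). Ifi35 also turned under median centring (0.013), and Trim21 as the mean of its probe sets (0.03). Over the arrays left out, values ran from -0.393 to 0.047 for the IFIT median, from -0.565 to 0.008 for the PARP median, from -0.481 to 0.054 for inhibitors, from -0.104 to 0.034 for interferons and from -0.44 to 0.003 for receptor and signal. For single genes they ran from -0.393 to 0.183 for Ifit1, from -0.22 to 0.047 for Ifit2, from -0.485 to 0.489 for Herc6, from -0.249 to 0.168 for Ifi35, from -0.362 to 0.061 for Dtx3l and from -0.769 to 0.112 for Parp12.

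Centring each array on the median level of the resting B cell genes added 1.39 to every difference, more than the median difference of those genes, so 44509 probe sets passed and the values say little about single genes. There 31 members passed as higher, 0 were lower and 32 higher without overlap, and the median was 0.86. The family medians that turned were sensors 0.825, double-stranded RNA binding enzymes 0.975, OAS 0.495, IFIT 1.29, MX 0.498, PARP 1.07, transcription and nuclear body 0.919, ubiquitin and ISG15 enzymes 1.12 and other effectors 0.861. Members that turned were Ifit3 0.141, Mx1 0.167, Dhx58 0.315, Cmpk2 0.436, Isg20 0.472, Oas2 0.473, Oasl1 0.495, Ifi27l2a 0.613, Zbp1 0.694, Stat2 0.755, Usp18 0.801, Trim25 0.821, Oas3 0.829, Mx2 0.829, Adar 0.83, Xaf1 0.838, Parp14 0.859, Rsad2 0.861, Ifih1 0.956, Parp12 1.06, Parp9 1.07, Sp100 1.08, Trim30a 1.12, Eif2ak2 1.12, Oasl2 1.14, Rtp4 1.14, Ddx60 1.23, Dtx3l 1.24, Trim21 1.28, Ifit1 1.29, Ifit2 1.3 and Ifi35 1.35. Centring on the mean of the same genes, chosen after seeing the data, gave 24 members past the threshold, 23 of them higher and 1 lower, while 94.0% of all probe sets passed. There 3 members were lower and 27 higher without overlap, and the members' median was 0.398, against 0.816 for the genes above the filter. Family medians were then sensors 0.363, double-stranded RNA binding enzymes 0.513, OAS 0.033, IFIT 0.823, MX 0.036, PARP 0.604, transcription and nuclear body 0.457, ubiquitin and ISG15 enzymes 0.656 and other effectors 0.399.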
